A study of Mus musculus with 12 samples.

Results

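The microRNA (miRNA) content of skin was compared between C57BL/6 mice irradiated with ultraviolet B (UVB) at 360 mJ/cm2 and mice irradiated at 180 mJ/cm2, the highest pair of doses in the series. C57BL/6 is a common inbred strain, and the animals were 6 to 8 weeks old at every dose. Each dose had 3 libraries, so the comparison used 6 of the 12 libraries. The other 6 came from untreated skin and from skin given 90 mJ/cm2. Libraries are named by dose and replicate number, as in UVB_180 replicate 2. UVB came from a phototherapy lamp, and the sources used here do not give the interval between irradiation and sampling. The deposited table listed 1519 mature arms in CPM (an arm's reads scaled to a library total of 1e+06), and the 590 arms that reached 1 CPM in at least 3 of the 12 libraries were tested. The scarcest arms inside this limit were miR-6382, miR-483-5p and miR-219a-5p, with a third-highest value of 1.03 CPM. The nearest of the 929 arms outside it were miR-491-5p, miR-9769-3p and miR-7236-3p, at 0.993 CPM. Of the 590 arms, 3 stayed under 1 CPM in all 6 libraries.

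Read totals were 3465518, 4769554 and 5060781 at 180 mJ/cm2 and 4059152, 3843933 and 3164422 at 360 mJ/cm2, so that a single read was worth 0.198 to 0.316 CPM. The keratinocyte arm miR-203-3p took 0.822% to 7.62% of the reads of these 6 libraries, and the muscle arm miR-1a-3p took 7.79% to 19.0%, so muscle miRNA was read in them beside that of the epidermis. The labels do not state whether separate animals gave the 3 libraries of a dose, and p-values therefore measure a spread between samples that may be technical. All log2 fold changes were taken on log2(CPM + 1) values, so the change of a scarce arm is understated. Differences written as a multiple (-fold) are ratios of mean CPM.

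miRNAs are short RNAs cut from hairpin precursors. Each hairpin can give an arm from its 5′ side (5p) and an arm from its 3′ side (3p), and the loaded arm pairs with mRNAs mainly through its seed, bases 2 to 8. In skin, keratinocytes express miR-203, miR-205 and the miR-200 family, which are tied to epidermal differentiation, progenitor growth and the epithelial state. Neutrophils and other myeloid cells carry miR-223, and cells of the blood lineage in general carry miR-142. UVB kills keratinocytes and draws leukocytes into the skin.

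The sequences of arms that the results turn on are given here to show which of them share a seed and which lie in a common cluster. They are RefSeq sequences with GRCm38.p6 coordinates, written 5′ to 3′, with the seed in capitals. RefSeq held 501 of the 590 tested arms and 23 of the 24 that passed the test described below. Gene positions are from the GENCODE annotation of the same build. The arms higher at 360 mJ/cm2 that are shown have seeds of their own. The miR-223 hairpin lies on chromosome X in an exon of the non-coding gene F630028O10Rik, that of miR-142a in an intron of the non-coding gene Mir142hg, that of miR-139 in an intron of Pde2a, a cyclic nucleotide phosphodiesterase gene, and that of miR-136 opposite to an exon of Rtl1.
miR-223-3p (chrX:96242884-96242905, plus strand): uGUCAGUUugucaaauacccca
miR-142a-3p (chr11:87756903-87756925, plus strand): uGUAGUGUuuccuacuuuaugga
miR-139-5p (chr7:101475382-101475403, plus strand): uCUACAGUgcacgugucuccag
miR-136-5p (chr12:109595331-109595352, plus strand): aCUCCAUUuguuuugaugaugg
The epithelial arms miR-203-3p and miR-205-5p also have seeds of their own. The hairpin of miR-203 overlaps no other annotated gene, and that of miR-205 lies in an exon of the non-coding gene 4631405K08Rik.
miR-203-3p (chr12:112130927-112130948, plus strand): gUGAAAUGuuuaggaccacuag
miR-205-5p (chr1:193507503-193507524, minus strand): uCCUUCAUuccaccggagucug
The 5 guide arms of the miR-200 family carry 2 seeds that differ at a single base, and they come from 2 clusters. The hairpins of miR-200b, miR-200a and miR-429 lie within 1846 bases of chromosome 4 (chr4:156053905-156055750) in an intron of Ttll10. The hairpins of miR-200c and miR-141 lie within 477 bases of chromosome 6 (chr6:124717914-124718390).
miR-200b-3p: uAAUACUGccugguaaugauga
miR-200c-3p: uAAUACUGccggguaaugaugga
miR-429-3p: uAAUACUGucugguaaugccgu
miR-200a-3p: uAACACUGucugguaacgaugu
miR-141-3p: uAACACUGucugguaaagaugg
The hairpins of miR-183, miR-96 and miR-182 lie within 3820 bases of chromosome 6 (chr6:30165918-30169737), on the minus strand, and their 5p arms have 3 related seeds.
miR-183-5p: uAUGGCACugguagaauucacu
miR-96-5p: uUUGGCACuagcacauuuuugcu
miR-182-5p: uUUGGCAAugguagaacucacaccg

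At 360 mJ/cm2 the skin held more of the myeloid and leukocyte arms miR-147-3p, miR-142a-3p and miR-223-3p than at 180 mJ/cm2. It held less of the epithelial arms miR-200a-3p, miR-203-3p and miR-205-5p. Not every listed arm followed. The log2 fold change was negative in 1 of 6 myeloid and 6 of 13 leukocyte arms, and positive in 1 of 13 epithelial arms. By limma's adjusted p under 0.05, 24 of the 590 arms (4.07%) differed. Of these, 10 (1.69%) were higher at 360 mJ/cm2, by 0.82 to 3.01 log2 units, and 14 (2.37%) were lower, by 0.78 to 2.26 log2 units. For all 24 the 3 libraries of a dose lay beyond the 3 of the other, a separation found in 171 of all 590 arms (29.0%), with 360 mJ/cm2 higher in 79 (13.4%) and lower in 92 (15.6%). The higher arms made up 41.7% of the calls, against 52.9% with TMM scaling factors and 65.4% when the totals were computed without the abundant arms miR-1a-3p and miR-21a-5p, a scaling that moved the median over all arms from 0.0038 to 0.13. Each of the 24 kept its sign under every alternative in which it was tested, but most alternatives could not have changed it. Leaving out libraries cannot reverse an arm whose groups do not overlap. A fit of only the doses compared and a replicate block leave the fold change as it was.

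**Figure D1:**
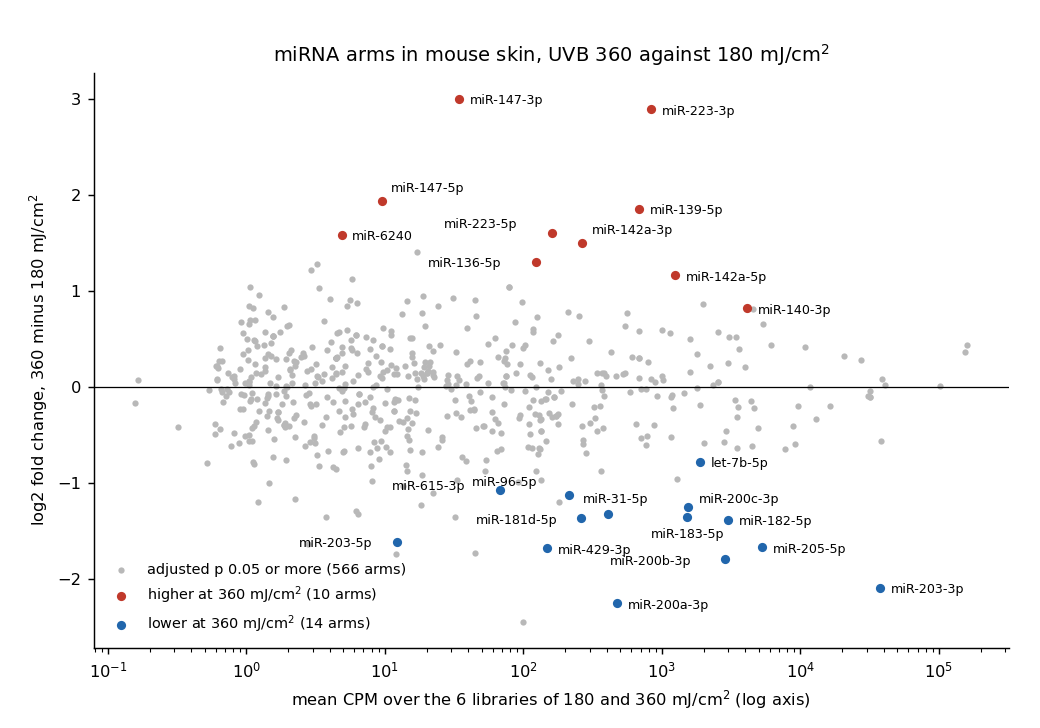
Log2 fold change (360 minus 180 mJ/cm2, linear axis) of each of the 590 arms against its mean CPM over the 6 libraries (log axis); each point is an arm. The 10 red arms are higher and the 14 blue arms lower at 360 mJ/cm2 by limma's adjusted p under 0.05, and the 566 grey arms did not pass. Called arms range from scarce (miR-6240, miR-147-5p) to abundant (miR-203-3p).

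These calls sat close to the threshold, with limma adjusted p from 0.0245 to 0.0489, and the count depended on single libraries and on the tool. Without UVB_180 replicate 2, UVB_180 replicate 3 or UVB_360 replicate 1 no arm passed in limma, although 95, 99 and 108 arms had an unadjusted p under 0.05, and without UVB_360 replicate 3 only miR-6240 passed. Without control replicate 2 there were 15 calls, without control replicate 3 there were 43 and without UVB_90 replicate 3 there were 45, since the untreated and 90 mJ/cm2 libraries share in the estimate of spread. edgeR's quasi-likelihood test called none of the 590 arms, with a smallest adjusted p of 0.0503. It put 131 arms at an unadjusted p under 0.05, all 24 among them, while DESeq2 called 64 arms, 26 higher and 38 lower. At an unadjusted p under 0.05, limma counted 133 arms (22.5%), 54 higher (9.15%) and 79 lower (13.4%).

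Among the higher arms, the strongest contrast was in the miRNAs of myeloid cells. miR-223-3p, which restrains granulocyte production and activity, stood at 277, 97.9 and 258 CPM in the libraries of 180 mJ/cm2 and at 1301, 1286 and 1758 CPM in those of 360 mJ/cm2. The lowest library of 360 mJ/cm2 was thus far above the highest of 180 mJ/cm2. The means of 211 ± 98.5 and 1448 ± 268 CPM (SD, n = 3 each) differed 6.86-fold (log2 fold change 2.90 ± 0.59, SE, limma adjusted p = 0.025). The other arm of the hairpin, miR-223-5p, stood at 109, 50.3 and 82.6 CPM at 180 mJ/cm2 and at 211, 207 and 302 CPM at 360 mJ/cm2 (log2 fold change 1.61 ± 0.37, limma adjusted p = 0.030). Both arms of miR-223 therefore separated the doses, and in both UVB_180 replicate 2 was the lowest of the 6 libraries and UVB_360 replicate 3 the highest.

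miR-147, which Toll-like receptor signalling induces in mouse macrophages, has its hairpin in an exon of AA467197 on chromosome 2. Its 3p arm was at 10.7, 3.14 and 6.92 CPM at 180 mJ/cm2 and at 41.9, 46.0 and 97.3 CPM at 360 mJ/cm2 (log2 fold change 3.01 ± 0.57, limma adjusted p = 0.025). This was the largest difference among the called arms. Its 5p arm was scarcer, at 1.89 to 4.35 CPM against 12.2 to 19.0 CPM (log2 fold change 1.94 ± 0.52, limma adjusted p = 0.049). In untreated skin miR-147-3p lay at 0.331 to 3.98 CPM, so its mean of 61.8 CPM at 360 mJ/cm2 stood against 1.73 CPM in controls, 6.84 CPM at 90 mJ/cm2 and 6.91 CPM at 180 mJ/cm2.

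The third myeloid hairpin, miR-511, lies in the gene of the macrophage mannose receptor and did not pass. miR-511-3p had a mean of 19.4 ± 5.18 CPM at 180 mJ/cm2 and 21.4 ± 2.27 CPM at 360 mJ/cm2 (95% interval of the log2 fold change -0.48 to 0.81), and miR-511-5p had 11.2 ± 3.28 and 7.37 ± 2.58 CPM (-1.21 to 0.09). By limma 4 of the 6 myeloid arms were higher, beside 1.69% of all arms, and none lower, with a median log2 fold change of 1.77 beside 0.0038 over all arms tested. The summed level of the 6 arms was 177 to 431 CPM at 180 mJ/cm2 and 1584 to 2197 CPM at 360 mJ/cm2. In whole skin, more cells of a type and more RNA per cell cannot be told apart, which holds for every cell-type arm described here.

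Of 13 tested arms listed as shared by leukocytes or induced by NF-kB, 3 were higher by limma, beside 1.69% of all arms, and none lower. These were both arms of the miR-142a hairpin and miR-139-5p. This list, like the others here, was drawn up with earlier results of these data known, so its count is not independent support. At an unadjusted p under 0.05, 5 of the 13 were higher and 1 lower, beside 9.15% and 13.4% of all arms. DESeq2 called 5 higher and 0 lower, beside 26 and 38 of all 590 arms. miR-142a, a blood-lineage miRNA, was higher in both arms. miR-142a-3p stood at 164, 92.0 and 165 CPM at 180 mJ/cm2 and at 373, 318 and 485 CPM at 360 mJ/cm2 (log2 fold change 1.503 ± 0.34, limma adjusted p = 0.030). The abundant miR-142a-5p went from a mean of 785 ± 247 to 1720 ± 285 CPM (1.17 ± 0.29, limma adjusted p = 0.038). miR-139-5p stood at 477, 185 and 255 CPM at 180 mJ/cm2 and at 890, 816 and 1494 CPM at 360 mJ/cm2 (1.86 ± 0.44, limma adjusted p = 0.034). Its other arm, miR-139-3p, was scarce, at 1.68 to 4.91 against 7.28 to 8.87 CPM, and just missed the threshold (1.13 ± 0.32, limma adjusted p = 0.060).

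The other 10 leukocyte arms did not pass in limma. miR-155-5p, which activated lymphocytes and macrophages induce, had 95.5 ± 20.9 CPM at 180 mJ/cm2 and 157 ± 2.37 CPM at 360 mJ/cm2, without overlap but short of the threshold (log2 fold change 0.73, 95% interval 0.20 to 1.26, limma adjusted p = 0.094). miR-146a-5p, an NF-kB-induced brake on innate signalling, overlapped at 3539 ± 677 and 3179 ± 209 CPM (95% interval -0.58 to 0.30). miR-150-5p, an arm of mature lymphocytes, overlapped as well, at 69.2 ± 7.64 and 55.3 ± 10.3 CPM (-0.98 to 0.32). The median of the 13 arms was 0.11, and their summed level was 6675 to 10506 CPM at 180 mJ/cm2 and 9378 to 10505 CPM at 360 mJ/cm2.

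**Figure D2:**
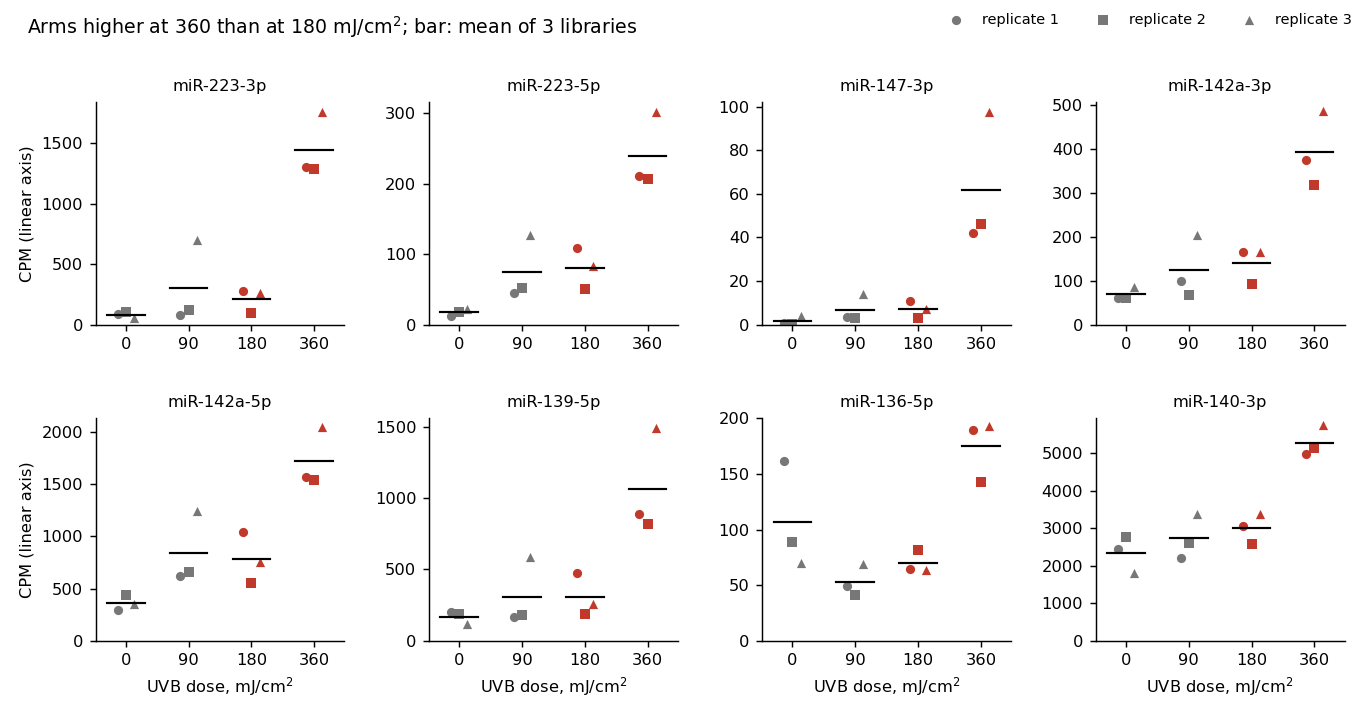
CPM (linear axis from 0) of 8 arms higher at 360 mJ/cm2, by UVB dose in mJ/cm2 (0 is untreated skin). Symbols are the 3 replicates, red for the doses compared and grey for the others, and each bar is a mean of 3 libraries. For miR-223-3p the libraries of 360 mJ/cm2 lie at 1286 to 1758 CPM and those of 180 mJ/cm2 at 97.9 to 277 CPM, while UVB_90 replicate 3 lies at 702 CPM.

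Outside the leukocyte lists 3 further arms were higher. miR-136-5p, from the imprinted Dlk1-Dio3 locus that carries a large miRNA cluster, stood at 64.6, 81.8 and 63.8 CPM at 180 mJ/cm2 and at 190, 143 and 193 CPM at 360 mJ/cm2 (log2 fold change 1.31 ± 0.29, limma adjusted p = 0.030). Its course over the doses was not one-way, since its mean was 107 CPM in untreated skin, 52.9 CPM at 90 mJ/cm2, 70.1 CPM at 180 mJ/cm2 and 175 CPM at 360 mJ/cm2. The other arm of the same hairpin, miR-136-3p, was level at 245 ± 31.9 and 249 ± 12.3 CPM (95% interval of the log2 fold change -0.48 to 0.54). The difference between the arms was not tested. By limma miR-136-5p passed alone among the 76 tested arms of the locus, whose median was 0.08. Of all arms, 1.69% were higher and 2.37% lower by limma. DESeq2 called 2 of the 76 higher and 1 lower, beside 26 and 38 of all 590 arms.

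miR-140-3p, from a hairpin in the gene Wwp2 and best known from cartilage, stood at 3053, 2567 and 3391 CPM at 180 mJ/cm2 and at 4980, 5134 and 5746 CPM at 360 mJ/cm2. The step was 1.76-fold (log2 fold change 0.82 ± 0.21, limma adjusted p = 0.045), and the groups were well apart. miR-140-5p pointed the same way without passing, at 93.4 ± 17.5 and 141 ± 16.3 CPM (0.60, 95% interval 0.11 to 1.09). The scarce miR-6240, whose hairpin on chromosome 5 overlaps no other annotated gene, stood at 1.44, 2.31 and 1.98 CPM at 180 mJ/cm2 and at 8.62, 9.11 and 5.69 CPM at 360 mJ/cm2 (1.59 ± 0.30, limma adjusted p = 0.025). It was at 1.79 ± 0.719 CPM in untreated skin and 1.77 ± 0.693 CPM at 90 mJ/cm2, so 3 of the doses were alike to within their spread and the fourth stood apart. Its low level put it outside the rule for named arms, and it was named after its values were seen.

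Among the lower arms, epithelial miRNAs led. miR-203-3p, which pushes keratinocytes out of the cell cycle and into differentiation, was the only called arm among the 10 most abundant of these libraries. It stood at 30964, 73229 and 76229 CPM at 180 mJ/cm2 and at 9550, 28063 and 8216 CPM at 360 mJ/cm2. The groups did not overlap, but UVB_360 replicate 2 came close to UVB_180 replicate 1. The means of 60141 ± 25312 and 15276 ± 11094 CPM differed 3.94-fold (log2 fold change -2.10 ± 0.48, limma adjusted p = 0.030). Its 5p arm was far scarcer, at 13.9 to 22.3 CPM against 3.45 to 10.4 CPM (log2 fold change -1.62 ± 0.40, limma adjusted p = 0.038).

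miR-205-5p, which sustains the growth of epidermal progenitors in mice, stood at 5232, 8484 and 9837 CPM at 180 mJ/cm2 and at 2000, 4411 and 1525 CPM at 360 mJ/cm2 (log2 fold change -1.67 ± 0.38, limma adjusted p = 0.030). Its mean at 180 mJ/cm2, 7851 ± 2367 CPM, was less than 1 SD away from those of untreated skin (9158 ± 759 CPM) and of 90 mJ/cm2 (7228 ± 3159 CPM). miR-205-3p overlapped between the doses and did not pass, at 122 ± 41.8 and 60.1 ± 19.0 CPM (-0.99, 95% interval -1.64 to -0.35, limma adjusted p = 0.072).

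In the miR-200 family, which keeps cells epithelial by repressing Zeb1 and Zeb2, 4 of the 5 guide arms shown above were lower, beside 2.37% of all arms. The fifth, miR-141-3p, missed the threshold. miR-200a-3p stood at 583, 884 and 852 CPM at 180 mJ/cm2 and at 112, 316 and 111 CPM at 360 mJ/cm2, the largest drop among the called arms (log2 fold change -2.26 ± 0.45, limma adjusted p = 0.025). Its mean was 3341 CPM in untreated skin, 840 CPM at 90, 773 CPM at 180 and 180 CPM at 360 mJ/cm2. miR-141-3p, with the same seed, had 46.4 ± 8.52 and 17.6 ± 4.16 CPM (-1.36 ± 0.39, limma adjusted p = 0.060).

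The arms with the other seed, AAUACUG, were lower in all 3 cases. miR-200b-3p stood at 2636, 5140 and 5374 CPM at 180 mJ/cm2 and at 839, 2214 and 928 CPM at 360 mJ/cm2 (log2 fold change -1.80 ± 0.46, limma adjusted p = 0.041). miR-200c-3p, from the other cluster, had 2159 ± 617 and 922 ± 354 CPM (-1.25 ± 0.34, limma adjusted p = 0.049), and miR-429-3p had 218 ± 40.7 and 76.0 ± 51.1 CPM (-1.68 ± 0.45, limma adjusted p = 0.049). The neighbours differed in their earlier course. From untreated skin to 180 mJ/cm2 the mean of miR-429-3p went from 771 to 218 CPM, while those of miR-200b-3p, 5336 ± 2100 and 4383 ± 1518 CPM, overlapped. Whether the members of the cluster differ in this was not tested.

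Of the 13 epithelial arms tested, 7 were lower by limma, beside 2.37% of all arms, none was higher and 6 did not pass, and the median log2 fold change was -1.36. With TMM scaling factors 4 passed, of 8 lower calls among all 590 arms, and with DESeq2 10 were lower, of 38 such calls. Their summed level was 41379, 90933 and 95669 CPM at 180 mJ/cm2 and 13349, 36746 and 11814 CPM at 360 mJ/cm2, so the groups stayed apart but UVB_180 replicate 1 and UVB_360 replicate 2 approached each other. The same libraries recurred across the calls. UVB_360 replicate 2 was the highest of its dose in 14 of the 14 lower arms, and UVB_180 replicate 1 was the lowest of its dose in 12 of them. Among the 10 higher arms, UVB_180 replicate 2 was the lowest of its dose in 8 and UVB_360 replicate 3 the highest in 8. UVB_90 replicate 3, at a lower dose, lay below all 3 libraries of 180 mJ/cm2 in 13 of the 14 lower arms and above all 3 in 8 of the 10 higher arms. Several of these arms share a hairpin or a cluster, so they are not separate observations. The same ranks were not counted over all tested arms. The myeloid sum was 431, 177 and 391 CPM in replicates 1, 2 and 3 of 180 mJ/cm2 and 1602, 1584 and 2197 CPM in those of 360 mJ/cm2. At 360 mJ/cm2 replicate 3 was lowest in the epithelial and highest in the myeloid sum, while replicates 1 and 2 were nearly level in the myeloid sum. At 180 mJ/cm2 replicate 1 was lowest in the epithelial and highest in the myeloid sum. Replicate 2 of that dose was lowest in the myeloid sum but not highest in the epithelial one. UVB_90 replicate 3 was also lowest of its dose in the epithelial sum, at 28299 CPM, and highest in the myeloid sum, at 890 CPM. The part of the cell mixture in the differences between doses was not tested.

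**Figure D3:**
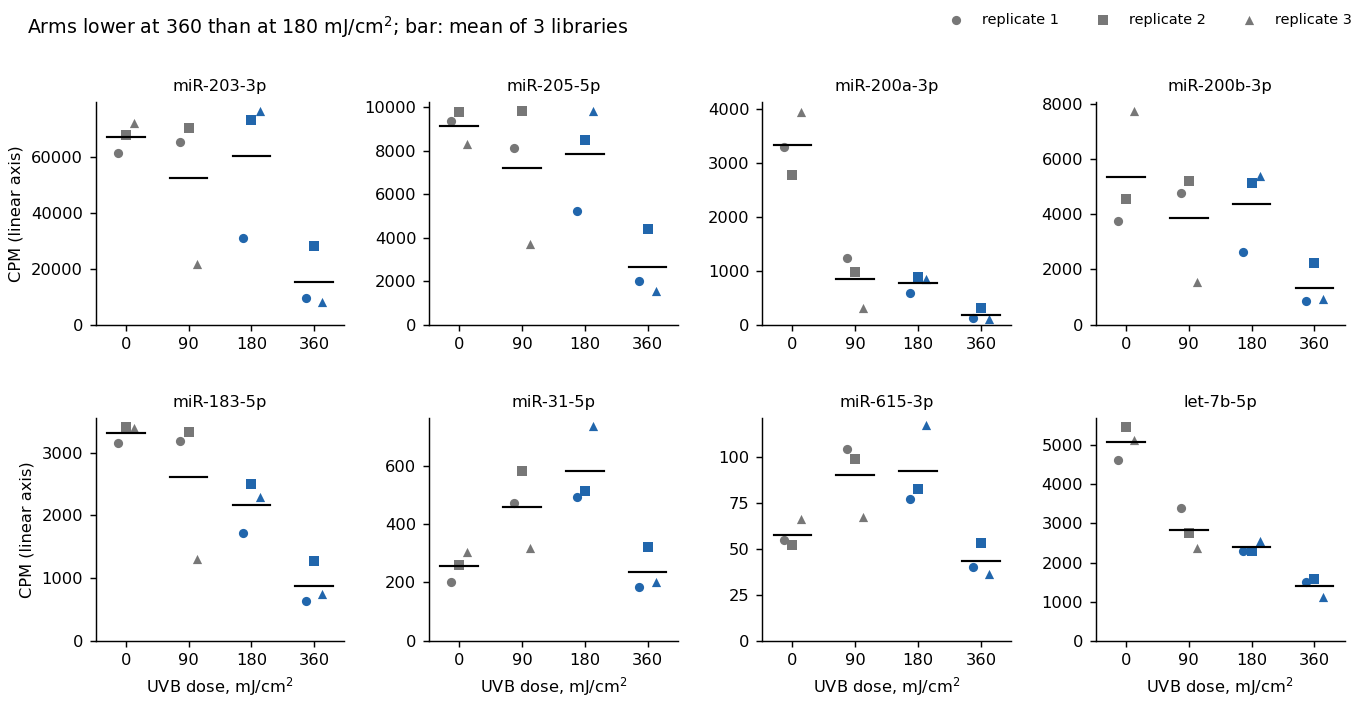
CPM (linear axis from 0) of 8 arms lower at 360 mJ/cm2, by UVB dose in mJ/cm2 (0 is untreated skin). Symbols are the 3 replicates, blue for the doses compared and grey for the others, and each bar is a mean of 3 libraries. miR-203-3p and miR-205-5p have 1 low library at 90 mJ/cm2 (replicate 3) and 1 at 180 mJ/cm2 (replicate 1), and miR-31-5p and miR-615-3p have their highest means at 180 mJ/cm2.

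The miR-183, miR-96 and miR-182 cluster, best known from sensory cells and also active in epithelia, was lower in its 3 abundant arms. Of all arms, 2.37% were lower by limma. miR-182-5p stood at 3169, 5106 and 4590 CPM at 180 mJ/cm2 and at 1133, 2609 and 1412 CPM at 360 mJ/cm2 (log2 fold change -1.38 ± 0.35, limma adjusted p = 0.041). miR-183-5p stood at 1723, 2500 and 2287 CPM against 625, 1268 and 744 CPM (-1.35 ± 0.33, limma adjusted p = 0.038), and miR-96-5p at 306, 316 and 251 CPM against 93.9, 166 and 149 CPM (-1.12 ± 0.29, limma adjusted p = 0.045). The 3 arms of this single locus thus differed by similar amounts, each to between 0.401 and 0.468 of its mean at 180 mJ/cm2. Of the scarcer arms, miR-183-3p had 5.66 ± 1.45 and 1.84 ± 1.59 CPM (-1.35 ± 0.40, limma adjusted p = 0.067), and the 6 arms of the cluster were all negative, with a median of -1.24. With TMM scaling factors 1 of the 6 passed, of 8 lower calls among all 590 arms.

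miR-31-5p and miR-615-3p had their highest means at 180 mJ/cm2 and their lowest at 360 mJ/cm2. miR-31-5p, which wounded and psoriatic keratinocytes induce and which promotes their growth, stood at 495, 516 and 738 CPM at 180 mJ/cm2 and at 184, 322 and 200 CPM at 360 mJ/cm2 (log2 fold change -1.33 ± 0.28, limma adjusted p = 0.025). Its mean was 256 ± 51.8 CPM in untreated skin, 458 ± 132 CPM at 90, 583 ± 135 CPM at 180 and 235 ± 75.6 CPM at 360 mJ/cm2, so the highest dose and untreated skin overlapped. Its other arm miR-31-3p did not pass, at 42.5 ± 4.39 and 39.2 ± 18.4 CPM (95% interval -0.995 to 0.51). miR-615-3p, from a hairpin in an intron of Hoxc5, stood at 77.0, 82.8 and 117 CPM at 180 mJ/cm2 and at 40.2, 53.1 and 36.3 CPM at 360 mJ/cm2 (-1.07 ± 0.25, limma adjusted p = 0.030). It had 57.7 ± 7.38 CPM in untreated skin and 90.4 ± 20.2 CPM at 90 mJ/cm2.

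In 2 larger seed families a single member passed in limma, lower in each, beside 2.37% of all arms. The let-7 seed GAGGUAG, shared by miRNAs that hold back growth in differentiated cells, was read in 11 tested arms, of which let-7b-5p alone passed. DESeq2 called 2 of the 9 arms listed as let-7 family guide arms lower, beside 38 of all 590 arms.
let-7b-5p (chr15:85707325-85707346, plus strand): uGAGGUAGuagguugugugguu
let-7i-5p (chr10:122985698-122985719, minus strand): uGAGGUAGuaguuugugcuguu
let-7b-5p stood at 2302, 2293 and 2559 CPM at 180 mJ/cm2 and at 1492, 1586 and 1128 CPM at 360 mJ/cm2 (log2 fold change -0.78 ± 0.20, limma adjusted p = 0.040). It had 5084 ± 431 CPM in untreated skin and 2835 ± 515 CPM at 90 mJ/cm2. let-7c-5p had 10935 ± 1037 and 7297 ± 1315 CPM without passing (-0.60, 95% interval -1.05 to -0.14, limma adjusted p = 0.11). The abundant let-7i-5p overlapped, at 37819 ± 2706 and 40117 ± 1656 CPM (95% interval -0.28 to 0.45). Reads of near-identical family members can be assigned to each other, so their separate values are uncertain.

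The miR-181 seed ACAUUCA, of a family that tunes lymphocyte signalling, was read in 4 tested arms, and miR-181d-5p passed.
miR-181d-5p: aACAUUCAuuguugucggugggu
miR-181b-5p: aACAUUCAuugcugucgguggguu
miR-181a-5p: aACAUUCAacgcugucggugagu
miR-181c-5p: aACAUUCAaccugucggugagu
miR-181d-5p stood at 244, 461 and 423 CPM at 180 mJ/cm2 and at 139, 175 and 112 CPM at 360 mJ/cm2 (log2 fold change -1.37 ± 0.34, limma adjusted p = 0.040). miR-181c-5p, whose hairpin lies beside that of miR-181d in an intron of Nanos3 on chromosome 8, had 9.74 ± 1.01 and 5.75 ± 1.10 CPM (-0.68, 95% interval -1.23 to -0.12, limma adjusted p = 0.13). miR-181b-5p, close to miR-181d-5p in sequence, had 349 ± 98.1 and 213 ± 44.0 CPM (-0.69, 95% interval -1.29 to -0.10). miR-181a-5p, the most abundant, had 998 ± 166 and 755 ± 125 CPM (-0.40, 95% interval -0.87 to 0.06). All 8 tested arms of the family were negative, but 7 did not pass in limma, nor in DESeq2.

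Most arms known from the response to UVB or to wounding did not pass in limma between these doses, and the same held for all 590 arms. Of all arms, 4.07% passed in limma and 22.5% had an unadjusted p under 0.05, and DESeq2 called 64. Of 12 wound arms 1 was lower by limma, miR-31-5p, and none was higher, 2 and 0 at an unadjusted p under 0.05, and DESeq2 also called 1 lower and 0 higher. Of 8 p53-responsive arms none passed in limma, 1 was higher at an unadjusted p under 0.05, and DESeq2 called 1 higher. miR-21a-5p, induced in wounds and inflammation, stood at 128928, 113909 and 167646 CPM at 180 mJ/cm2 and at 177643, 192652 and 178726 CPM at 360 mJ/cm2, without overlap (log2 fold change 0.44, 95% interval -0.08 to 0.96, limma adjusted p = 0.31). With miR-1a-3p it took 24.6% to 29.3% of the reads at 180 mJ/cm2 and 33.8% to 36.9% at 360 mJ/cm2, and each CPM is a share of a total that holds both. miR-34c-5p, a p53 target, had 726 ± 175 and 861 ± 101 CPM (95% interval -0.37 to 0.89), and miR-34a-5p had 146 ± 11.5 and 116 ± 21.7 CPM (-0.82 to 0.12). miR-132-3p, induced by CREB, had 65.1 ± 3.87 and 84.6 ± 2.20 CPM (-0.25 to 0.99), and the hypoxia arm miR-210-3p had 141 ± 45.4 and 90.7 ± 29.7 CPM (-1.25 to -0.01, limma adjusted p = 0.21).

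Among the 566 arms that did not pass, 325 had a 95% interval within 1 log2 unit of 0 on either side. A larger difference on the log2(CPM + 1) scale thus lay outside their interval. For the others the data do not limit the difference that far. For scarce arms that scale understates the change, so the limit does not carry over to their CPM. The 3 arms nearest to the threshold were miR-376b-3p, miR-219a-2-3p and miR-330-3p, each at a limma adjusted p of 0.051. miR-376b-3p, of the Dlk1-Dio3 locus, had 49.1 ± 5.39 and 28.4 ± 4.78 CPM (log2 fold change -0.78 ± 0.21). miR-219a-2-3p was scarce and spread widely at 180 mJ/cm2, at 8.66, 4.61 and 1.38 CPM, against 0.739, 0.260 and 0.948 CPM. miR-330-3p had 11.01 ± 2.88 and 5.07 ± 1.36 CPM (-0.98 ± 0.27). The last 2 were named after their values were seen.

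**Figure D4:**
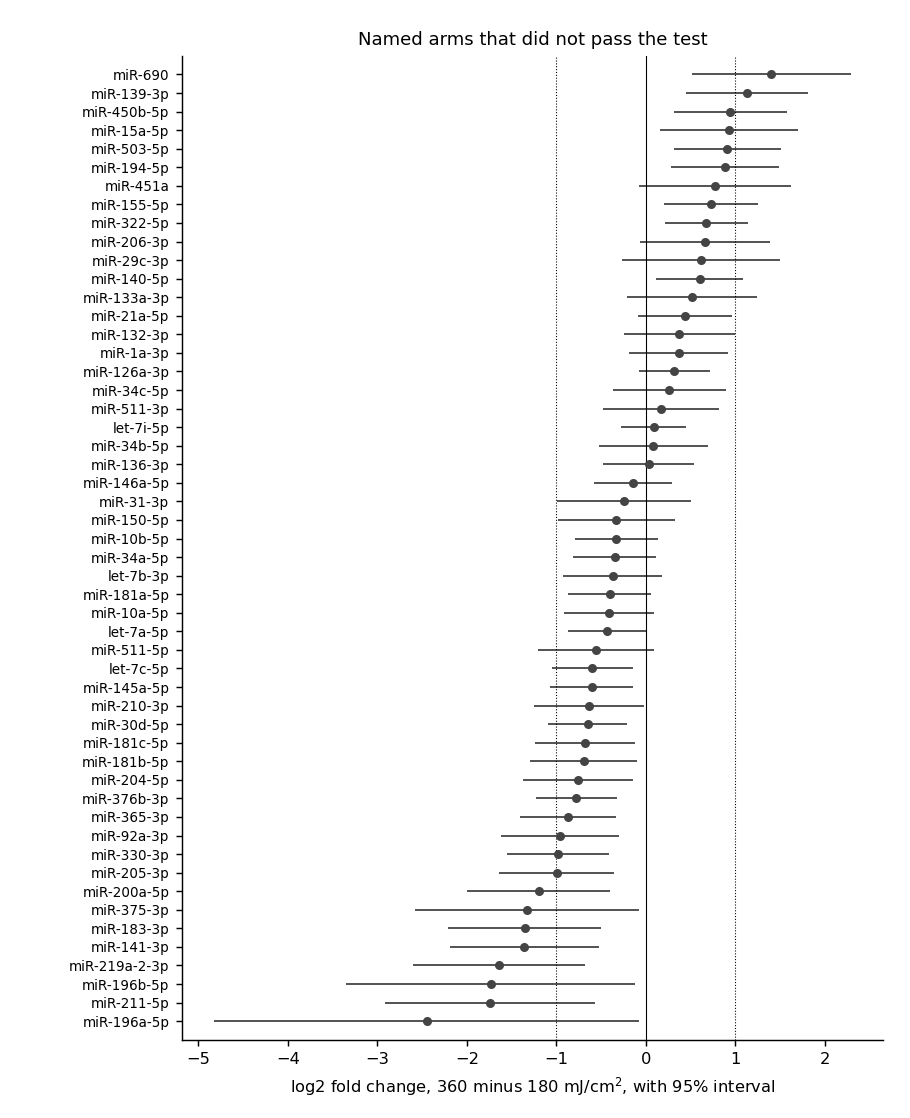
Log2 fold change (360 minus 180 mJ/cm2, linear axis) of named arms that did not pass the test; points are estimates, bars their 95% intervals from limma, and dotted lines mark 1 log2 unit on either side of 0. Some intervals leave room for sizeable differences (miR-211-5p, -2.92 to -0.57) and others are narrow (let-7i-5p, -0.28 to 0.45).

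Arms of other cell types were examined beside these. Of 7 skeletal muscle arms none passed in limma, with 0 at an unadjusted p under 0.05, or in DESeq2, and all were positive, with a median of 0.37. miR-1a-3p stood at 155540, 179084 and 77927 CPM at 180 mJ/cm2 and at 169148, 145352 and 190460 CPM at 360 mJ/cm2 (95% interval -0.18 to 0.92), so UVB_180 replicate 3 was low and the groups overlapped. Without UVB_180 replicates 1 and 3, an alternative chosen after seeing the data, its log2 fold change was -0.10. miR-126a-3p, an arm of endothelial cells, had 18323 ± 1772 and 22824 ± 1854 CPM without overlap (0.32, 95% interval -0.08 to 0.71), and the red cell arm miR-451a overlapped at 418 ± 206 and 706 ± 318 CPM (-0.08 to 1.62).

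Of the 3 tested pigment cell arms none passed in limma, and 2 were lower at an unadjusted p under 0.05, beside 13.4% of all arms. DESeq2 called 1 of them lower, beside 38 of all 590 arms. miR-211-5p, from the melanocyte gene Trpm1, stood at 7.21, 31.9 and 19.6 CPM at 180 mJ/cm2 and at 4.19, 7.02 and 2.53 CPM at 360 mJ/cm2 (log2 fold change -1.75 ± 0.55, limma adjusted p = 0.080), after 83.7 ± 31.8 CPM in untreated skin. miR-375-3p, a Merkel cell arm, had 9.85 ± 7.16 and 2.93 ± 1.73 CPM with overlap (-1.33 ± 0.59, limma adjusted p = 0.19). Of 10 smooth muscle and fibroblast arms 7 were positive and 3 negative, with a median of 0.018, and none passed in limma. DESeq2 called 1 of the 10 lower, beside 38 of all 590 arms. The lowest of the 10, miR-145a-5p, had 910 ± 68.0 and 612 ± 168 CPM (-0.60, 95% interval -1.07 to -0.14, limma adjusted p = 0.11). Of the 11 tested arms of the X-linked miR-322 and miR-503 cluster, which slow the cell cycle, 8 were positive and none passed in limma. In this cluster 4 arms were higher at an unadjusted p under 0.05, beside 9.15% of all arms. DESeq2 called 3 of them higher, beside 26 of all 590 arms. There, miR-503-5p had 31.3 ± 8.00 and 58.7 ± 6.72 CPM without overlap (0.91 ± 0.28, limma adjusted p = 0.076). Of the 22 lists 14 held no arm that passed in limma, and 8 of these 14 held an arm that DESeq2 called.

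**Figure D5:**
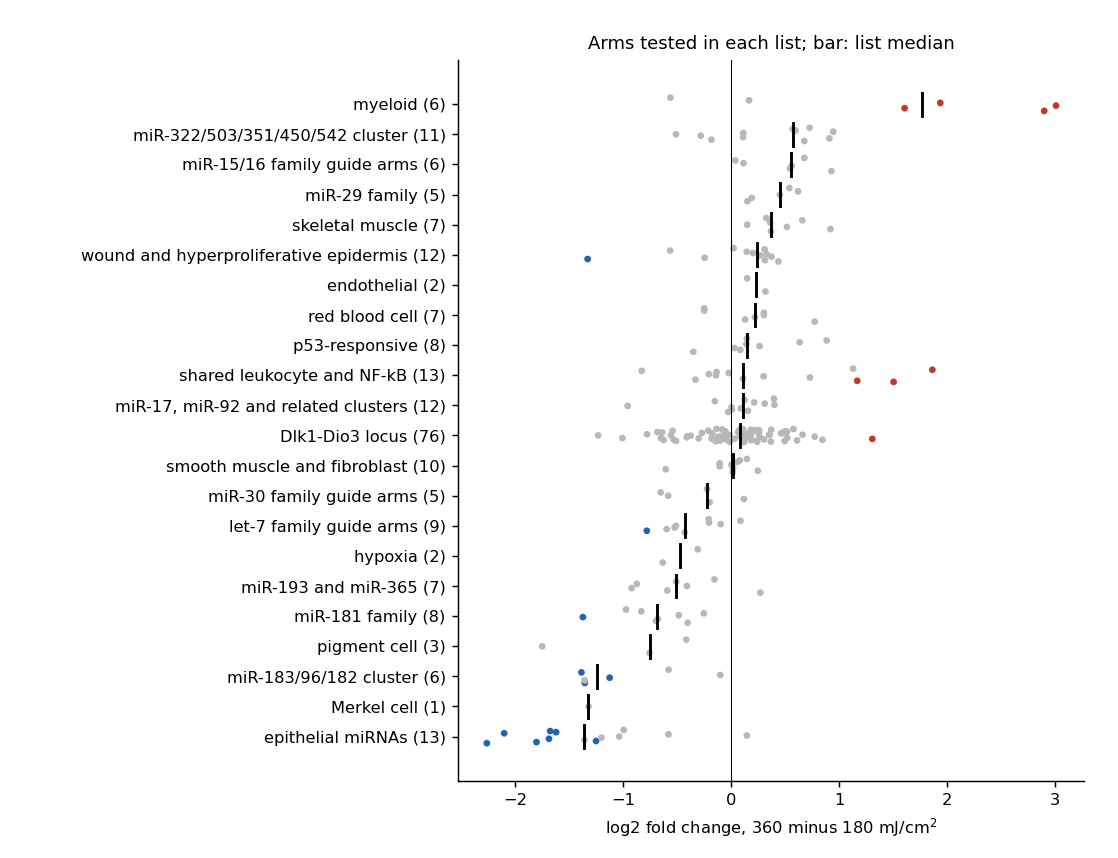
Log2 fold change (360 minus 180 mJ/cm2, linear axis) of the tested arms of 22 lists, sorted by list median; each point is an arm, red if higher and blue if lower by limma's adjusted p under 0.05, grey otherwise, and each bar is the list median. Tested arms are counted in parentheses. The myeloid list (median 1.77) and the epithelial list (median -1.36) lie at the ends, and small vertical shifts only separate points.

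The means compared in the step from untreated skin to 90 mJ/cm2 use none of these 6 libraries, but all 12 share in the estimate of spread, so the calls of this step and of that from 180 to 360 mJ/cm2 are not independent. In it 151 of the 590 arms (25.6%) passed in limma, 78 higher and 73 lower, and the count was 50 without control replicate 1, 96 without control replicate 2 and 84 without UVB_90 replicate 3. Of the 24 arms, 10 passed in both steps, which is 41.7% of the 24 and 6.62% of the 151. With a separate fit for each step, 63 arms passed between 180 and 360 mJ/cm2, 83 passed between 0 and 90 mJ/cm2 and 16 passed in both, 25.4% of the 63 and 19.3% of the 83. The number in both was 0 to 18 when 1 of the 12 libraries was left out, and 0 without UVB_180 replicate 2, UVB_180 replicate 3, UVB_360 replicate 1 or UVB_360 replicate 3. miR-223-5p, miR-142a-5p and miR-147-5p were higher in both, and miR-200a-3p, miR-429-3p, miR-96-5p, miR-203-5p and let-7b-5p were lower in both. miR-136-5p was lower and miR-31-5p higher in the early step, and both turned in the late one. The other 14 arms, miR-223-3p, miR-203-3p and miR-205-5p among them, passed between 180 and 360 mJ/cm2 and not between 0 and 90 mJ/cm2. Whether the 2 steps differ in size was not tested.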

How the data were processed

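Small RNA was extracted with Trizol, made into libraries with a NEBNext small RNA kit and read on a NextSeq 500, per the labels' protocols. Ligation favours some RNA ends, so levels were compared between libraries rather than between arms. The authors deposited CPM, made against mm9 per the submitters' processing notes; the sources used here give no aligner, counter or miRBase release. Whole reads could be recovered for 100% of the values (tolerance 0.01 reads), which gave 3164422 to 8063815 reads over the 12 libraries. Reads carry no molecular identifiers.

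Groups came from the sample titles. The test was a two-sided limma-trend fit (R 4.3.3, limma 3.58.1), with pseudocount 1 for log2(CPM + 1), over 12 libraries with a mean per dose and no replicate term. P-values were adjusted by Benjamini-Hochberg over the 590 arms, with a threshold of 0.05. An exact permutation test of 3 against 3 libraries cannot go below 0.1 and was not used. edgeR 4.0.16 and DESeq2 1.42.0 on the recovered reads, other pseudocounts, filters and scalings, a replicate block and leaving out libraries were alternatives. No libraries were duplicates: between replicates, chi-square was 130 to 630 times its degrees of freedom.

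Named arms are those that passed with a mean of at least 10 CPM (up to 15 in each direction), their other arms, members of 22 lists, and the 10 most abundant; exceptions are stated. The members and lists were chosen with earlier results of these data known. In 11 sets, 24 tested arms share all their values with a near-identical arm; those of miR-199 and miR-486 enter the list counts, and no value of theirs is given alone.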

Additional observations from a re-analysis of the deposited data

How the results depend on the processing

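With pseudocount 5 there were 17 higher calls. The lists hold 228 of the 590 tested arms and were drawn up with earlier results of these data known, so counts in lists are not independent support. With TMM scaling 8 arms were lower, 7 of them in lists. With totals that exclude miR-1a-3p and miR-21a-5p 17 were higher and 9 lower, 8 of the lower in lists. edgeR's quasi-likelihood test gave 0 higher and 0 lower, in all and in the lists. DESeq2 gave 64 calls, 26 higher and 38 lower (16 and 24 in lists), and limma on only the 6 libraries compared gave 63, 28 higher and 35 lower (16 and 24 in lists). Leaving out each of the 12 libraries in turn gave 0 to 45 calls, 0 to 21 higher and 0 to 27 lower, with 0 to 13 higher and 0 to 21 lower in lists. Without UVB_180 replicates 1 and 3, chosen after seeing the data, there were 0 higher and 0 lower, in all and in the lists, and 86 arms at an unadjusted p under 0.05; the lone library was assumed to vary like the other groups. For 90 mJ/cm2 against control, only the 6 libraries compared gave 83 calls, 43 higher and 40 lower, and leaving out libraries gave 50 to 173, 26 to 81 higher and 24 to 92 lower. For these changes the cause was not tested. Same-numbered libraries of 180 and 360 mJ/cm2 correlated at -0.223 to 0.15 in their deviations from the dose means, and differently numbered ones at -0.358 to 0.282. Of all 18 same-numbered pairs, 6 exceeded 0.1. Deviations from a mean of 3 libraries depend on each other, so these values cannot settle whether the numbers pair the libraries. The replicate block gave 30 calls, 13 higher and 17 lower, sharing 23 of the 24. Of 1743 values of 76 named arms under the alternatives, 1454 kept sign and side of the threshold, 190 lost it, 86 gained it and 13 changed sign. None of the 13 belongs to a called arm, whose sign could not change when libraries were left out, since its groups do not overlap. With 1 library left out, miR-31-3p ranged from -0.49 to 0.23, positive without UVB_360 replicate 1; miR-136-3p from -0.080 to 0.10, negative without UVB_180 replicate 3 or UVB_360 replicate 2; miR-511-3p from -0.045 to 0.33, negative without UVB_180 replicate 2; miR-146a-5p from -0.26 to 0.0054, positive without UVB_180 replicate 1; and miR-34b-5p from -0.021 to 0.27, negative without UVB_180 replicate 2 or UVB_360 replicate 2. With both arms out of the totals miR-146a-5p was 0.022. Without UVB_180 replicates 1 and 3, miR-136-3p was -0.049, miR-146a-5p 0.11, miR-1a-3p -0.098, miR-196a-5p 0.63 and miR-196b-5p 0.23. Of 506 list medians 490 moved by less than the spread between replicates, but some could not move at all. Leaving out an untreated or 90 mJ/cm2 library, fitting only the doses compared and the replicate block leave every fold change of 360 against 180 mJ/cm2 as it was. The counts of kept values and medians include these alternatives. The depth of 3164422 to 5060781 reads puts the limit that a count of 0 allows (3 reads) at 0.593 to 0.948 CPM, for counting error only.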

Other observations

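The largest negative log2 fold change of all 590 arms did not pass and belonged to miR-196a-5p, an arm encoded in the Hox clusters, which was named after its values were seen. It stood at 230, 9.64 and 297 CPM at 180 mJ/cm2 and at 18.7, 28.9 and 6.64 CPM at 360 mJ/cm2 (-2.45 ± 1.12, limma adjusted p = 0.20). Its high libraries did not follow dose, since untreated skin had 165, 14.6 and 10.9 CPM and 90 mJ/cm2 had 9.46, 55.8 and 26.3 CPM. miR-196b-5p, from another Hox cluster, was high in the same 3 libraries, at 111 CPM in control replicate 1, 135 CPM in UVB_180 replicate 1 and 74.5 CPM in UVB_180 replicate 3, and at 8.40 to 18.5 CPM in the other 9 (-1.73 ± 0.76, limma adjusted p = 0.18). The Hox-encoded arms miR-10a-5p and miR-10b-5p did not share this pattern. miR-10b-5p lay at 14047, 14062 and 14831 CPM at 180 mJ/cm2 and at 11298, 12963 and 10061 CPM at 360 mJ/cm2 (95% interval -0.79 to 0.13), and miR-10a-5p lay at 7886 to 11367 and 6795 to 8974 CPM (-0.91 to 0.09).

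The largest positive log2 fold change among arms that did not pass was that of miR-690, also named after its values were seen. It stood at 12.4, 9.64 and 5.34 CPM at 180 mJ/cm2 and at 22.9, 22.4 and 29.1 CPM at 360 mJ/cm2 (1.41 ± 0.42, limma adjusted p = 0.067), without overlap, while untreated skin spread from 5.05 to 20.4 CPM.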
